A study of Sus scrofa with 226 samples.

Results

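HCN2, HCN3 and HCN4 encode pore-forming subunits of the hyperpolarization-activated, cyclic nucleotide-gated cation channels. They were taken by name as 3 of the 30420 genes measured in single sensory neurons from dorsal root ganglia of pigs. Their levels were compared across cells, animals and conditions and set against what a patch pipette had recorded from the same cells, with values compared within each animal. Most voltage-gated channels of a neuron open when the membrane is depolarised, whereas HCN channels open when it is hyperpolarised and then carry an inward current, named Ih, that pulls the potential back up. Cyclic AMP binds inside the channel and makes opening easier. In sensory neurons Ih is known for its part in the resting potential, input resistance and repetitive firing, and in mice HCN2 of pain-sensing neurons has been tied to inflammatory and neuropathic pain.

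All cells came from wild-type pigs, 10 animals in total, with no treatment named in the labels other than culture. Ganglia of cervical, thoracic and lumbar segments had been dissociated and the neurons kept in culture for 1, 2 or 3 days before recording, and 78 and 24 of the cells were recorded at 2 and 3 days. The animals were 11 to 20 weeks old and gave between 6 and 35 cells each. Each neuron was collected whole through a pipette after its recording (Patch-seq), and its RNA was amplified by Smart-Seq2. Levels are in CPM, counts scaled to a common library total. A cell with at least 50 CPM of OSMR, a receptor subunit for oncostatin M, and under 200 CPM of ADCYAP1, the gene of the neuropeptide PACAP, is called OSMR-positive here. A cell with at least 200 CPM of ADCYAP1 and under 50 CPM of OSMR is called ADCYAP1-high. The first gate held 60 cells and 33 cells fell in neither, so that most cells were ADCYAP1-high. One stated aim of the study was to mark mechano-insensitive C-fibres by their genes.

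Total counts ran from 109726 to 5506278 per cell with a median of 740524, where a single count equals 1.35 CPM. Animal 4 supplied 33.3% of all counts. The neuronal genes SNAP25, UCHL1 and STMN2 had counts in 100% of cells, whereas RBFOX3 had them in 31.4%. The summed level of the 11 neuron markers was 988 to 28069 CPM per cell. Macrophage genes, 9 in number, summed to 0 CPM in 24 cells and to a median of 47.5 CPM over all cells, with a highest value of 5970 CPM.

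All 3 HCN genes were found in a minority of neurons. HCN2 (ENSSSCG00000033442), a fast, cAMP-sensitive subunit, had at least 1 count in 34 cells, or 15.0% of all (95% exact binomial interval 10.6 to 20.4%). HCN3 (ENSSSCG00000006518), a subunit known to respond weakly to cAMP, had a count in 25 cells, or 11.1% (7.29 to 15.9%). HCN4 (ENSSSCG00000001920), the slow and strongly cAMP-sensitive subunit of the cardiac sinoatrial pacemaker, had a count in 16 cells, or 7.08% (4.10 to 11.2%). The median gene with a symbol was found in 58.8% of cells, and 20.7%, 17.7% and 13.8% of the 14867 such genes had a lower share than HCN2, HCN3 and HCN4. The reads carry no molecular identifiers, so these intervals cover counting error only.

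Counts of each gene were concentrated in few cells. Over all cells the sums were 246 counts of HCN2 (1.08 CPM of the summed total), 243 of HCN3 (1.07 CPM) and 99 of HCN4 (0.436 CPM). The cell with the most counts of a gene held 15.0% of them for HCN2 and 19.3% for HCN3, but 69.7% for HCN4. That HCN4 cell, from animal 3, had 69 counts (42.3 CPM). Of the other 15 HCN4 cells, 9 had a single count and the highest count was 8. By CPM, the 2 cells highest in HCN3 reached 165.99 CPM from 28 counts and 38.4 CPM from 47 counts. The cell highest in HCN2 by CPM had 19.2 CPM from 6 counts. Its library held 313318 counts, and its macrophage genes summed to 5704 CPM. The cell with the most HCN2 counts was another one, with 37 counts and 16.7 CPM. At least 1 of the 3 genes was found in 64 cells (28.3%). Of these, 53 had exactly 1 of them and 11 exactly 2 (HCN2 with HCN3 in 6, HCN2 with HCN4 in 3, HCN3 with HCN4 in 2), and no cell had all 3.

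HCN2 was found more often in deeper libraries, and HCN3 and HCN4 showed no such order. HCN2 had a count in 6.67% of the 75 shallowest cells, in 13.3% of the 75 of middle depth and in 25% of the 76 deepest. HCN3 was found in 12%, 5.33% and 15.8% of the same cells, and HCN4 in 8%, 5.33% and 7.89%. A cell without a count may therefore still express the gene below what its depth could show.

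By animal, HCN2 and HCN3 were found in all 10 pigs and HCN4 in 5. The share of cells with HCN2 averaged 14.8% ± 7.64 (SD, n = 10 animals), from 3.23% in animal 6 to 25.7% in animal 4. The HCN3 share averaged 12.4% ± 7.83, from 3.33% in animal 7 to 27.3% in animal 3, and the HCN4 share 7.54% ± 12.0, with a highest value of 36.4% in animal 3. As summed levels, HCN2 ran from 0.0582 CPM in animal 1 through a median of 0.774 CPM to 2.00 CPM in animal 4. HCN3 had the smallest SD over animals, 0.423 CPM, and ran from 0.318 CPM in animal 9 through a median of 0.822 CPM to 1.70 CPM in animal 4. HCN4 stood at 3.18 CPM in animal 3 and at 0.375, 0.302, 0.165 and 0.0721 CPM in animals 9, 6, 2 and 5. The other 5 animals had 0 HCN4 counts, and of these animal 4 gave the most reads, so that its upper 95% limit was 0.0488 CPM. Animal 3 thus stood above the others in HCN4. It held 4 of the 16 HCN4 cells and 81 HCN4 counts, 69 of them in 1 cell.

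**Figure D1:**
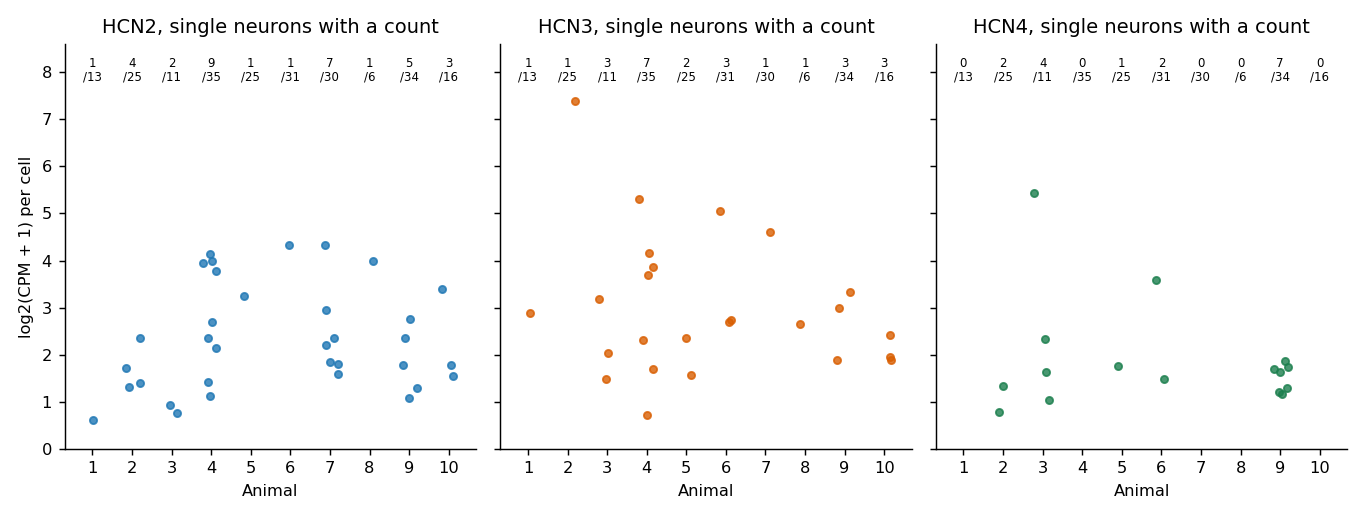
Level of HCN2, HCN3 and HCN4 in each neuron, by animal, as log2(CPM + 1); each point is 1 cell with a count, and the numbers above give cells with a count out of all cells of the animal. HCN2 and HCN3 have points in all 10 animals, HCN4 in 5, with its highest cell at 42.3 CPM in animal 3.

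The gates asked whether the channel genes differ between OSMR-positive and ADCYAP1-high neurons, which did differ in their recordings. HCN2 was found in 18.3% of OSMR-positive and 15.8% of ADCYAP1-high cells, and HCN3 in 11.7% and 10.53%. HCN4 was found in 1 of 60 OSMR-positive cells (1.67%) and in 13 ADCYAP1-high cells (9.77%). Reduced to 300000 counts per cell, HCN2 was found in 12.5% of 56 OSMR-positive and 13.5% of the ADCYAP1-high cells, HCN3 in 8.93% and 9.01%, and HCN4 in 0 of 56 and in 7 cells (6.31%). The shallower cells left out numbered 4 OSMR-positive and 22 ADCYAP1-high.

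Summed by animal, HCN4 had 1 count in the OSMR-positive cells of animal 9 and 0 in those of the other 7 animals that held at least 2 cells of each gate. The ADCYAP1-high cells of the same animals had 7 HCN4 counts in animal 9, 5 in animal 6, 4 in animal 2, 1 in animal 5 and 0 in animals 1, 4, 7 and 10. The OSMR-positive side was lower in 4 animals, and both sides were at 0 in the other 4. HCN2 averaged 0.591 ± 0.726 CPM in OSMR-positive and 0.963 ± 0.868 CPM in ADCYAP1-high sums (SD, n = 8 animals each), and HCN3 0.458 ± 0.639 and 0.926 ± 0.676 CPM. These ranges overlapped widely.

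No HCN gene passed the test between the gates. Quasi-likelihood tests of edgeR were blocked by animal and adjusted by Benjamini-Hochberg over all genes, and an adjusted p under 0.05 counted as changed. By this test 7.23% of 21729 genes were called and 0 of the 3 HCN genes. The log2 fold change was −0.39 ± 0.79 (SE) for HCN2 (adjusted p = 0.879), −1.49 ± 1.05 for HCN3 (adjusted p = 0.523) and −2.04 ± 1.52 for HCN4 (adjusted p = 0.560). At an unadjusted p under 0.05 there were also 0 of 3 with edgeR, DESeq2 and limma. HCN4 lay below edgeR's filter on low counts in this comparison and was fitted beside the genes that passed it.

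**Figure D2:**
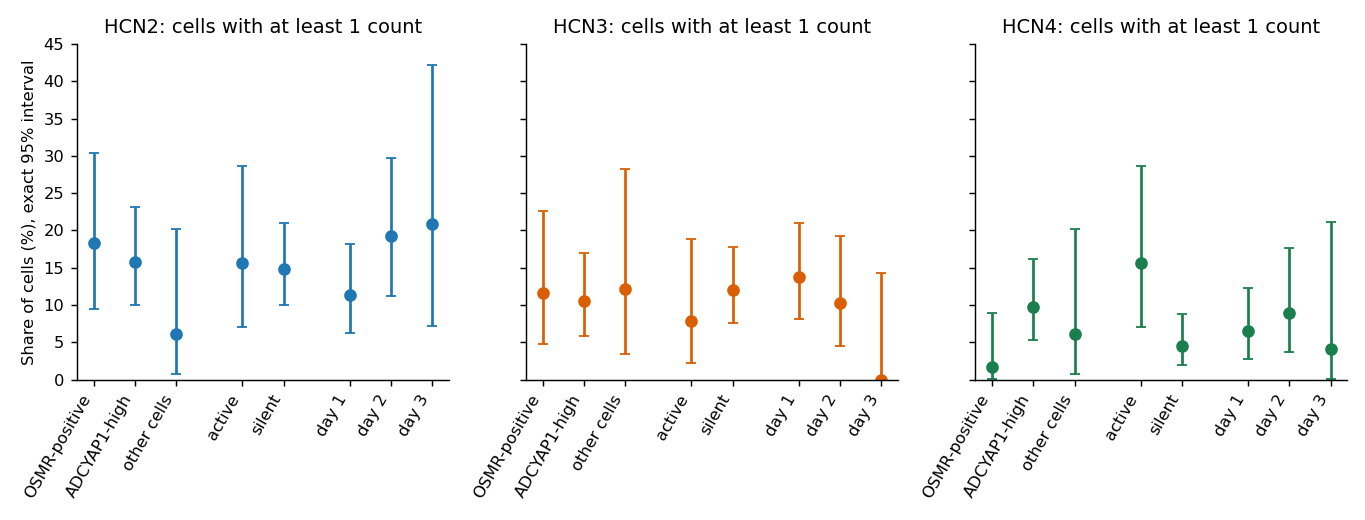
Percentage of neurons with at least 1 count of each HCN gene by gate, spontaneous activity and day in culture; bars are exact 95% binomial intervals over cells, which cover counting error only. The HCN4 shares are 1.67% in OSMR-positive and 9.77% in ADCYAP1-high cells, and 15.7% in spontaneously active and 4.57% in silent cells.

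Some genes of cAMP signalling, and of conductances and pumps that act at rest, were called between the gates. Of 20 tested genes that bind HCN channels or make, degrade or sense cAMP, 2 were higher and 4 lower in OSMR-positive neurons, 30% of those tested against 7.23% over all genes, and the median log2 fold change was 0.14, against −0.05 over all genes. ADCY5, an adenylyl cyclase, averaged 7.91 ± 3.05 CPM in OSMR-positive and 2.25 ± 1.70 CPM in ADCYAP1-high sums, higher in 8 of 8 animals (log2 fold change 2.01 ± 0.36, edgeR adjusted p = 0.00163). RAPGEF4, the cAMP sensor EPAC2, was likewise higher in 8 of 8 animals (69.6 ± 21.3 and 34.4 ± 7.85 CPM, adjusted p = 0.00168). PDE4B, a phosphodiesterase that breaks cAMP down, was lower in 8 of 8 (15.99 ± 13.5 CPM in OSMR-positive and 91 ± 30.2 CPM in ADCYAP1-high sums, log2 fold change −2.71 ± 0.28, adjusted p = 1.29e-05). PRKAR1A, a regulatory subunit of protein kinase A, was lower in 8 of 8 animals (611 ± 47.4 and 1232 ± 304 CPM, adjusted p = 0.00129). PRKAR2B, another such subunit, and ADCY2, another adenylyl cyclase, were lower in 7 of 8 each (adjusted p = 0.00433 and 0.0218).

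Among 20 tested genes of other conductances and pumps that act at rest, 3 were higher and 6 lower in OSMR-positive neurons, 45% of those tested against 7.23% over all genes, with a median log2 fold change of −0.77, against −0.05 over all genes. The potassium channel genes KCNA2 (12.0 ± 6.13 CPM in OSMR-positive and 1.39 ± 0.867 CPM in ADCYAP1-high sums, log2 fold change 3.17 ± 0.43) and KCNT2 were higher in 8 of 8 animals, and KCNK2, the background potassium channel TREK-1, in 7 of 8. The sodium pump subunit ATP1B1 (136.6 ± 41.7 CPM in OSMR-positive and 407 ± 147.35 CPM in ADCYAP1-high sums) was lower in 8 of 8, as were the inward rectifiers KCNJ6 and KCNJ3 and the M-type channel gene KCNQ5. UNC80, a subunit of the sodium leak channel complex, was lower in 7 of 8. The edgeR adjusted p of the genes named here was at most 0.0460. Neither list of genes was chosen independently of earlier results of these data, and in each of the other comparisons below 0 genes of either list were called by edgeR at adjusted p under 0.05, with 0 to 4 per list at an unadjusted p under 0.05.

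The recordings differed between the gates as background to the relations with HCN genes. The cell table gives no units or definitions. RMP is a usual abbreviation for resting membrane potential, Input_res_new names an input resistance, Delta.Rmem a change of the membrane value, Spontan_active is 0 or 1, and X100Hz is a whole number from 0 to 20 whose counted event is not stated. The median X100Hz was 2 in OSMR-positive cells and 7 in ADCYAP1-high cells, and the median Input_res_new 0.0945 and 0.245. Spontaneous activity was recorded in 6 OSMR-positive and 38 ADCYAP1-high cells.

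HCN4 cells had higher X100Hz values than the other cells of their animals. In animals 2, 3, 5, 6 and 9 the mean X100Hz of cells with an HCN4 count was 15, 11.2, 10, 20 and 7.43, against 5.87, 6.57, 5.12, 6.97 and 4.73 in cells without one. The difference was 6.88 ± 4.16 (SD, n = 5 animals) and positive in 5 of 5. It rested on 1 to 7 HCN4 cells per animal, and without the cell of 69 counts it was 6.30 ± 4.72, again positive in 5 of 5. Within ADCYAP1-high cells it was 4.11 ± 5.46 and positive in 3 of 5. The mean Spearman rho within animals was 0.34 ± 0.10 (positive in 5 of 5) over all cells and 0.19 over ADCYAP1-high cells alone, with no p attached because cells of an animal share their source.

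**Figure D3:**
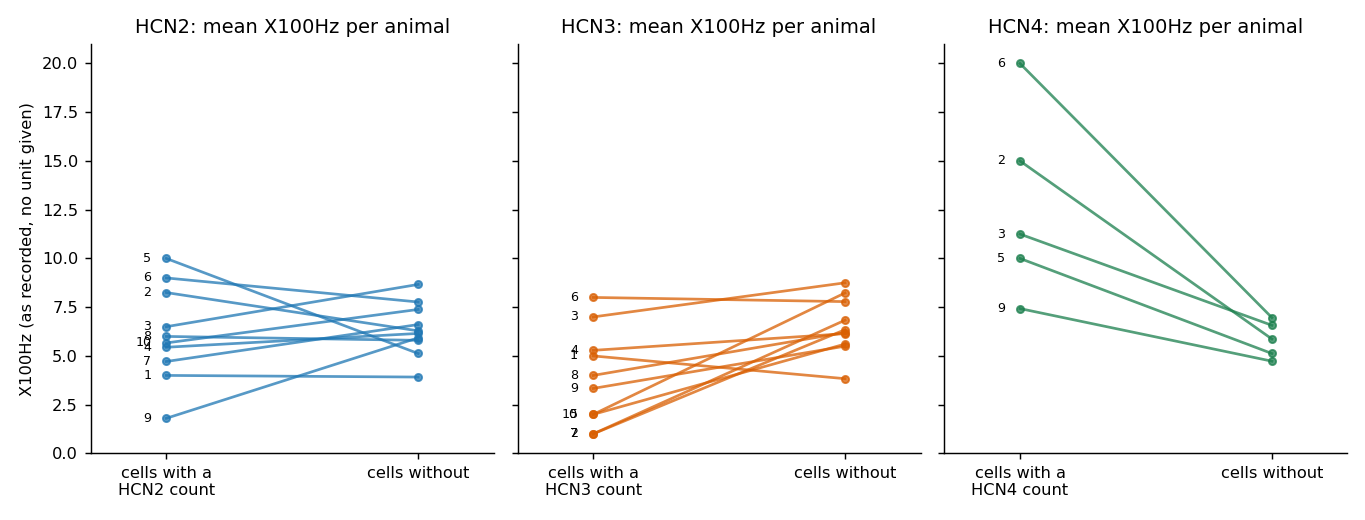
Mean X100Hz per animal of neurons with (left) and without (right) a count of each HCN gene, as recorded and with no unit stated; each line joins the values of 1 animal. For HCN4 the line of all 5 animals runs higher on the side with a count, by 6.88 ± 4.16 on average, and for HCN3 it runs lower in 8 of 10.

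The test over animals did not call HCN4. Cells above the X100Hz median of their animal held 83 HCN4 counts in 10 of 99 cells, against 6 counts in 3 cells (2.91%) below it. By animal the cells above the median had 4, 69, 1, 5 and 4 HCN4 counts in animals 2, 3, 5, 6 and 9, against 0, 3, 0, 0 and 3 in those below, and both sides were at 0 in the other 5 animals. The log2 fold change was 3.08 ± 1.15 (edgeR, p = 0.0225, adjusted p = 0.426). HCN4 lay below the filter on low counts here, as it did on RMP, Input_res_new, Delta.Rmem and age below. Of the 3 HCN genes 0 were called, where 0.812% of 21436 genes were. At an unadjusted p under 0.05 edgeR had HCN4 alone, DESeq2 had HCN3 alone (log2 fold change −2.58, p = 0.0233) and limma none. HCN4 was 1.86 ± 2.98 with DESeq2 (p = 0.532). Animal 3 alone carried 69 of the 83 counts. Without that animal the log2 fold change was 1.96, and without the cell of most counts of each HCN gene it was 1.81 (p = 0.164). Among ADCYAP1-high cells alone it was 1.63 (p = 0.252).

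HCN3 cells tended the other way on the same recording. X100Hz averaged 3.86 ± 2.45 over animals in cells with an HCN3 count and 6.52 ± 1.45 in those without (SD, n = 10), a difference of −2.66 ± 2.55 that was negative in 8 of 10 animals. Animals 1 and 6 were the exceptions, at 1.17 and 0.214. The mean rho was −0.15 ± 0.25 for X100Hz, and −0.18 ± 0.19 for X50Hz, a column named like X100Hz for a lower frequency. HCN3 was found in 7 of 99 cells above the X100Hz median (7.07%) and in 14 cells below it (13.6%). The log2 fold change of −1.82 ± 1.22 did not pass (adjusted p = 0.749). Among ADCYAP1-high cells alone it was −0.47 ± 1.70, and the mean rho was −0.08 ± 0.34 over 7 animals. HCN2 showed no order on X100Hz, with a difference of −0.226 ± 2.53 that was positive in 5 of 10 animals and a log2 fold change of −0.16 ± 1.15 (adjusted p = 0.991).

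Spontaneously active neurons were then set against silent ones of the same animals. HCN4 had a count in 8 of 51 spontaneously active neurons (15.7%) and in 8 silent ones (4.57%). Conversely, 50% of the 16 HCN4 cells were active, against 20.5% of the other 210. HCN2 was found in 15.7% of active and 14.9% of silent neurons, and HCN3 in 7.84% and 12.0%. These shares pool cells over animals. As the mean of animal shares, HCN2 stood at 12.8% ± 14.1 in active and 15.2% ± 9.37 in silent neurons (SD, n = 10 each). Summed by animal, HCN4 reached 6.40, 1.06, 0.965 and 0.415 CPM in active cells of animals 3, 9, 6 and 2, against 0.633, 0.270, 0.149 and 0 CPM in silent cells. In animal 5 it was 0 in active and 0.0920 CPM in silent cells, and in the other 5 animals 0 in both. Of the 82 HCN4 counts in active cells 69 were from the single cell of animal 3.

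In edgeR's test the log2 fold change between active and silent neurons was 2.36 ± 1.01 for HCN4 (p = 0.0379, adjusted p = 0.659), −2.34 ± 1.23 for HCN3 (adjusted p = 0.693) and 0.46 ± 1.11 for HCN2 (adjusted p = 0.935), beside a median of −0.23 over all genes. Of 22580 genes 0.0133% were called, and 0 of the 3 HCN genes. At an unadjusted p under 0.05 edgeR had HCN4 alone, DESeq2 had HCN3 alone (log2 fold change −2.88, p = 0.0180) and limma none. HCN4 was 2.36 ± 1.45 with DESeq2 (p = 0.105). Without the 3 cells of most counts the log2 fold change of HCN4 was 1.33, and among ADCYAP1-high cells alone 0.83. HCN3 averaged 0.595 ± 1.20 CPM over animals in active cells and 1.13 ± 0.721 CPM in silent cells (SD, n = 10), and was lower on the active side in 8 of 10 animals. HCN2 was higher on the active side in 5 animals and lower in 5, with 7.40 CPM in active cells of animal 6 from 1 cell of 23 counts, where the silent cells had 0.

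The resting potential showed no relation that held over animals. HCN2 was found in 14 of 100 cells above their animal's RMP median and in 14 of 100 below, HCN3 in 11 and 12, and HCN4 in 8 and 5. The within-animal rho averaged −0.00 ± 0.32 for HCN2, −0.09 ± 0.35 for HCN3 and −0.00 ± 0.13 for HCN4. RMP of cells with an HCN2 count averaged −59.1 ± 5.48 over 8 animals, against −57.5 ± 2.205 in cells without, and that of cells with HCN3 −61.1 ± 6.72 over 9 animals, against −57.3 ± 2.53. Neither difference exceeded its SD over animals. The log2 fold changes were 0.35 ± 1.05, −0.80 ± 1.27 and 0.37 ± 1.31 for HCN2, HCN3 and HCN4. With edgeR 0% of 21658 genes were called, 775 of them at an unadjusted p under 0.05, and none of the 3 HCN genes was under 0.05 unadjusted with edgeR, DESeq2 or limma. Among ADCYAP1-high cells alone the values of HCN2 and HCN4 were −1.38 and −0.60, opposite in sign and again not called.

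The mean Input_res_new was lower in HCN2 cells of 9 of 10 animals, with a single HCN2 cell in each of animals 1, 5 and 6. The means in cells with HCN2 ran from 0.0330 to 0.210 in those 9 animals, against 0.136 to 0.331 in cells without. In animal 8 the only HCN2 cell had 0.925, against 0.177 in its 5 other cells, so that the mean difference over all animals was −0.0101 ± 0.272. HCN2 was found in 12 cells above the Input_res_new median (11.1%) and 20 below it (18.5%). The log2 fold change of −0.64 ± 0.85 did not pass (adjusted p = 0.828). The mean rho within animals was −0.07 ± 0.30 (negative in 7 of 10), and −0.29 ± 0.30 over 8 animals among ADCYAP1-high cells alone. HCN2 cells also had deeper libraries, with a median of 1156940 counts against 695600 in the cells without, and the part of depth in this pattern was not tested. HCN3 (0.52 ± 1.31, adjusted p = 0.923) and HCN4 (−0.19 ± 1.41, adjusted p = 0.978) did not pass either. Of 22201 genes 0.306% were called by edgeR and 0 of the 3 HCN genes, with 0 of 3 at an unadjusted p under 0.05 with edgeR, DESeq2 and limma.

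Delta.Rmem had been recorded in 7 animals. It averaged −3.08 in HCN4 cells of the 3 animals that had any and −0.706 in the other cells, with 0.563, −5.48 and −4.33 in HCN4 cells of animals 5, 6 and 9, against −0.415, −1.23 and −0.475 in the cells without. The log2 fold change between cells above and below the median was −1.71 ± 1.69 for HCN4, −0.84 ± 1.14 for HCN2 and −0.15 ± 0.97 for HCN3. No HCN gene was called (0% of 20959 genes with edgeR, 1013 of them and 0 HCN genes at an unadjusted p under 0.05). HCN2 was found in 11 cells above the median (12.6%) and 16 below it (18.4%).

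**Figure D4:**
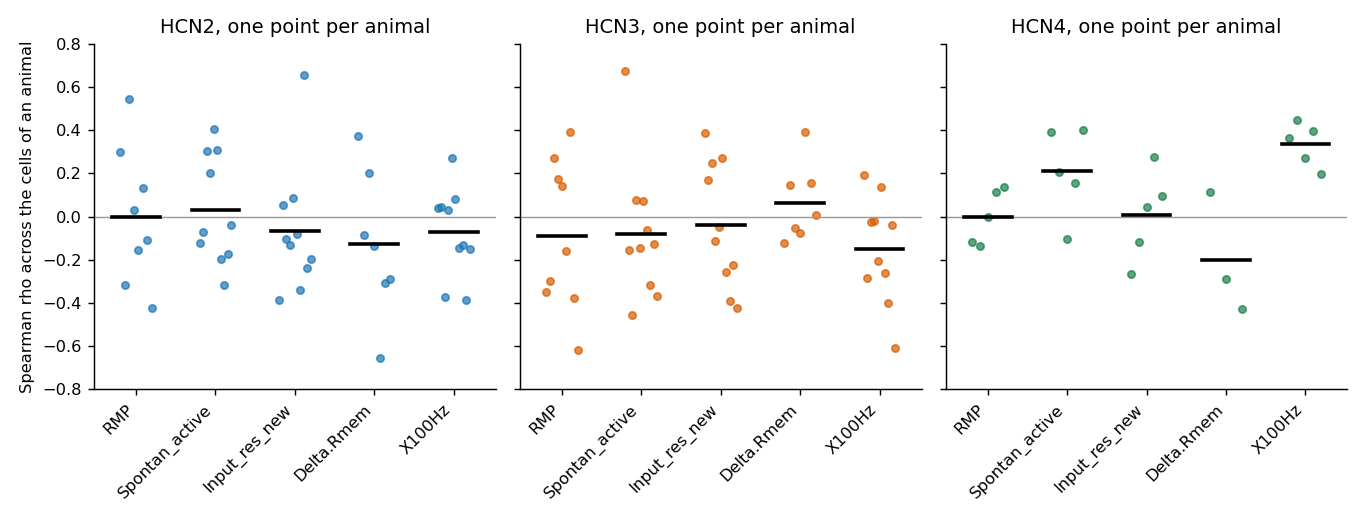
Spearman rho within each animal between the level of each HCN gene and the 5 recorded values; each point is 1 animal with at least 6 cells, and the line marks the mean. The HCN4 points for X100Hz lie between 0.20 and 0.45 in all 5 animals, while the points of HCN2 and HCN3 spread over both signs for every recorded value.

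Across the 40 recorded values the highest and lowest mean rho differed from gene to gene. HCN4 had its lowest mean rho with the action potential threshold (AP_threshhold, −0.34 ± 0.12, negative in 5 of 5 animals), X2nd_Infliction (−0.30 ± 0.38) and Rheobase, the smallest current that evokes a spike (−0.29 ± 0.16, negative in 5 of 5), and its highest with X100Hz (0.34), X50Hz (0.23) and Delta.I.Initial (0.21, 3 animals). Cslow, the usual name for slow membrane capacitance, was not among these lowest values (mean rho −0.18 ± 0.11). It averaged 50.04 ± 14.9 in cells with HCN4 and 74.8 ± 13.4 in those without, and was lower in 5 of 5 animals. The recorded diameter went the other way, by 2.10 ± 2.79 (mean rho 0.095 ± 0.14), and was higher in 4 of 5 animals. Neither value was compared within ADCYAP1-high cells, which held 13 of the 16 HCN4 cells. HCN3 ran opposite on the firing values, with its lowest mean rho for X50Hz, X100Hz and X20Hz (−0.18, −0.15 and −0.15) and its highest for pA_threshold (0.20 ± 0.27, positive in 9 of 10), HS_Quotient (0.15) and pA_start (0.12). HCN2 reached only 0.15 ± 0.22 at most, for AHP_Tau, followed by Delta.ind.time (0.14) and APD (0.12), and its lowest were Delta.Rmem (−0.13), input_res (−0.09) and pA_start (−0.08). These means come from sparse counts, rest for HCN4 on 16 cells and 5 animals, and are descriptions only.

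HCN4 cells shared other features, in shares and medians pooled over animals. The 16 HCN4 cells came from 5 animals, 7 of them from animal 9, and 13 were ADCYAP1-high. Cells without an HCN4 count came from all 10 animals. Differences between animals or gates were not separated from the shares and medians below. TRPM8, the cold and menthol receptor channel, had a count in 14 of 16 HCN4 cells (87.5%) and in 66.2% of the other 210, with a median of 41.9 CPM and 5.86 CPM. TRPV1, the capsaicin receptor, had a count in 56.2% of HCN4 cells and 71.4% of the others (medians 14.2 and 38.02 CPM). ADCYAP1 was found in 16 of 16 HCN4 cells and in 92.9% of the others. The macrophage genes had a median sum of 122.3 CPM in HCN4 cells and 44.2 CPM in the others, and the median total count was 786856 and 733157, and the part of macrophage RNA in the HCN4 pattern was not tested. By mean within-animal rho over 8453 genes found in at least 50% of cells, the genes most like HCN4 were PCP4 (0.41 ± 0.21), RPH3A (0.39 ± 0.20), MAP2K6 (0.38 ± 0.30), TRPM8 (0.34 ± 0.12) and ABCG4 (0.33 ± 0.27) over 5 animals. Those most like HCN2 over 10 animals were CDKN2AIP (0.36), HBP1 (0.33), TAF9B (0.32), WNK1 (0.31) and FBXL17 (0.31). For HCN3 they were RRAGD (0.35), FRMD6 (0.32), SPRTN (0.29), SMOX (0.28) and ZNF236 (0.28). Each list holds the highest of 8453 values, so its means are high by selection, and they were not tested.

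For the other HCN genes the cells were again pooled over animals. TRPM8 had a count in 85.3% of HCN2 cells and 64.6% of cells without HCN2 (medians 10.9 and 5.18 CPM). It had a count in 72% of HCN3 cells and 67.2% of cells without HCN3. Satellite glia genes had a median sum of 238 CPM in HCN3 cells and 127.9 CPM in cells without HCN3. The neighbours of HCN3 limit what its counts mean. In the RefSeq annotation HCN3 overlaps CLK2, a splicing kinase gene, and PKLR, the pyruvate kinase of liver and red cells, and unstranded reads of overlapping genes cannot be told apart. Of the 25 HCN3 cells 16 had a CLK2 count and 18 a PKLR count, while over all cells these genes were found in 46.02% and 65.9%. The deposited counts are estimates, and 15 of the 25 HCN3 values above 0 were not whole. This held for 6 of 36 such values of HCN2, 0 of 16 of HCN4 and 52.1% over all genes. How the estimates split reads between genes was not given in the sources used here. HCN2 lies 60 bases from POLRMT, the mitochondrial RNA polymerase, which had a count in 21 of the 34 HCN2 cells and in 49.6% of all cells.

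Time in culture was compared within the 7 animals with at least 3 cells at both 1 and 2 days. Pooled over these animals, HCN2 was found in 15 of 72 cells at day 2 and 10 of 100 at day 1. HCN3 was found in 7 and 13 of these cells, and HCN4 in 7 and 4. The HCN2 sums averaged 0.921 ± 1.03 CPM at day 2 and 0.936 ± 1.07 CPM at day 1 (SD, n = 7 animals). They were lower at day 2 in 5 animals and higher in 2, so the pooled shares of HCN2 do not show a rise within animals. By animal HCN3 had 53, 19 and 4 counts at day 2 in animals 4, 7 and 10 and 0 in animals 2, 5, 6 and 9. At day 1 it had 76, 0 and 4 counts in animals 4, 7 and 10, and 28, 6, 12 and 7 in animals 2, 5, 6 and 9. The log2 fold change, with all 3 days fitted together, was −1.71 ± 1.26 for HCN3, 2.24 ± 1.34 for HCN4 and 0.12 ± 1.32 for HCN2 (edgeR adjusted p = 1 for each). With edgeR 0% of 23122 genes were called, 839 of them and 0 of the HCN genes being under 0.05 unadjusted, and DESeq2 and limma also gave 0 HCN genes under 0.05 unadjusted. HCN4 at day 2 rested on 9 counts, against 6 at day 1.

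Day 3 was sampled in 3 animals, too few for the test set for it. HCN3 had 0 counts in 24 cells at day 3, which allows a share of cells with a count of up to 12.5% (3 of 24, for counting error only), against 28, 76 and 0 counts at day 1 in the same animals (2, 4 and 7). All day 1 counts lay in 4 of 33 cells, and animal 7 was at 0 on both days. HCN2 had 14, 0 and 8 counts at day 3 and 2, 49 and 0 at day 1 in animals 2, 4 and 7, and HCN4 had 3 counts in 1 cell at day 3 and 0 at day 1.

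Age could be followed over 9 animals at 1 day in culture, from 11 to 18 weeks. HCN3 had 0.671 and 2.08 CPM in the animals of 11 weeks, 0.786 at 12 weeks, 4.36 at 14, 0.697 and 0.985 at 15, 0.463 at 17, and 0 and 0.739 at 18 weeks. HCN2 had 0.0671 and 0.149 CPM at 11 weeks, 0.196 at 12, 2.81 at 14, 0.465 and 1.89 at 15, 0.132 at 17, and 0 and 1.11 CPM at 18 weeks. HCN4 was found at 12 weeks (3.18 CPM, animal 3), at 15 weeks (0.164 CPM in 1 of the 2 animals) and at 17 weeks (0.264 CPM). In the fit on age, a comparison between animals with no block, HCN2 and HCN4 lay below the filter on low counts. The slopes per week were 0.15 ± 0.30 for HCN2, −0.29 ± 0.19 for HCN3 and −0.63 ± 0.33 for HCN4 on the log2 scale (edgeR adjusted p = 0.985, 0.894 and 0.842). None passed, where 0% of 19731 genes did (1223 under 0.05 unadjusted), and DESeq2 and limma also gave 0 HCN genes under 0.05 unadjusted. Without animal 3 the HCN4 slope was 0.43, opposite in sign.

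**Figure D5:**
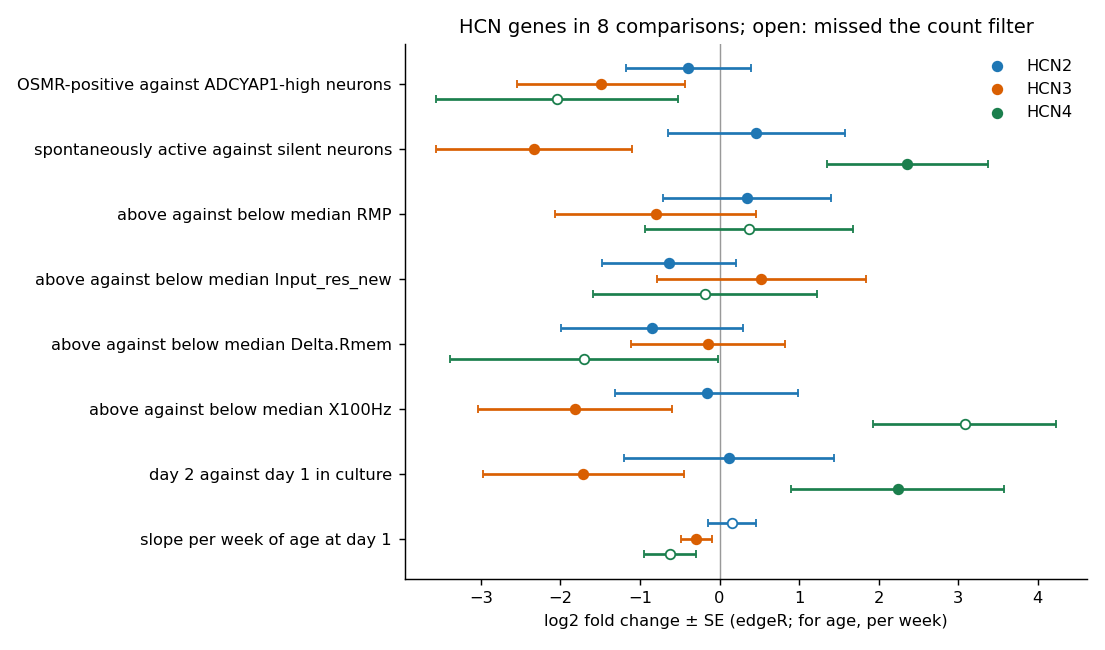
Log2 fold change of HCN2, HCN3 and HCN4 with its SE from edgeR's test in each comparison, and the slope per week for age; open points lay below the filter on low counts, and a positive value means higher in the group named first. No value passed at an adjusted p under 0.05, and the standard errors of the comparisons between groups run from 0.79 to 1.69.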

How the data were processed

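Patch-seq libraries (Smart-Seq2, which is unstranded and has no molecular identifiers, per the labels' protocols) of 226 neurons were used. The authors deposited estimated counts per gene, of which 52.1% of the values above 0 were not whole, and a cell table of other recorded values with no units, deposited beside it. Its 269 lines hold 43 of no sample used here. Per the submitters' processing notes bcl2fastq 2.20 was used. The read aligner and the build were not given in the sources used here, so no coordinates or sequences are printed. RefSeq served for symbols (14867 of 30420 identifiers) and neighbours only.

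Counts were summed per animal and group (at least 2 cells, 3 for day and age), rounded and tested with edgeR 4.0.16 (R 4.3.3) using TMM, filterByExpr, quasi-likelihood tests blocked by animal, and Benjamini-Hochberg adjustment over all genes (threshold 0.05). The animal itself supplied the pairing, since its cells stand on both sides. The fit on age had no such block, since age is fixed within an animal. A member below the filter was fitted beside the passing genes. DESeq2 1.42.0 and limma 3.58.1 on log2(CPM + 1) were alternatives. CPM were computed here from the deposited counts. Labels do not say that cells of an animal came from separate cultures. Comparisons had to have at least 4 animals on both sides. Cells were picked singly and no doublet caller was run. The edgeR fit was run on simulated sums in which only genes of higher mean count were changed. How it detects changes at counts as low as those of the HCN genes was not tested. Spearman rho was taken within animals of at least 6 cells. Members, lists and gates were chosen with earlier results of these data known. Named genes were the 3 members, for each the 5 genes of highest rho, and the 3 highest and 3 lowest recorded values, plus called genes of 2 lists. Cslow and diameter were named outside this choice. One further gene of the family is not reported here.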

Additional observations from a re-analysis of the deposited data

Results flagged for a closer look

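In 34 sets of values from 4 to 10 animals, Dixon's test at the 95% level flagged 5 values as far from the nearest other. Its rate of about 1 in 20 sets by chance assumes independent sets of normally spread values. Here HCN4 levels hold zeros, and a rho and a difference of the same animal share its cells. The number of flags can therefore not be set against that rate. The HCN4 level of animal 3, 3.18 CPM, stood apart from the next highest of 0.375 CPM, and 69 of its 81 counts came from 1 cell. For HCN2, animal 8 stood apart in both measures of Input_res_new. Its rho with Input_res_new was 0.655, where the next highest was 0.0849, and its difference in Input_res_new between cells with and without a count was 0.748, where the next was −0.0148. Animal 8 gave 6 cells and 1 HCN2 cell. For HCN3, animal 1 had a rho with Spontan_active of 0.677, next to 0.0759, and a difference in Spontan_active of 0.917, next to 0.107. It had 1 HCN3 cell, which was spontaneously active.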

How the results depend on the processing

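No HCN gene had an adjusted p under 0.05 under any alternative that gave one, so the signs below are those of values that did not pass. DESeq2 gave no adjusted p for the 3 genes on activity, Input_res_new, Delta.Rmem and X100Hz, nor for HCN4 between the gates, and made no call there. Under alternatives other than leaving out an animal, 33 fold changes turned their sign and all the others kept it. The cause of these turns was not tested. With cells of day 1 alone, OSMR-positive against ADCYAP1-high values were 0.11 for HCN2 and 0.19 for HCN3, Input_res_new gave 0.43 for HCN4, Delta.Rmem 0.15 for HCN2 and 1.01 for HCN3, and X100Hz 0.18 for HCN2. In ADCYAP1-high cells alone, RMP gave −1.38 for HCN2 and −0.60 for HCN4, Input_res_new −0.33 for HCN3 and 0.30 for HCN4, and X100Hz 0.054 for HCN2. With medians taken within animal and gate, RMP gave −0.95 for HCN2 and −0.70 for HCN4, Delta.Rmem 0.16 for HCN3 and X100Hz 0.30 for HCN2. With cells of at least 300000 counts, RMP gave −0.35 for HCN2, Input_res_new −0.17 for HCN3 and X100Hz 0.28 for HCN2. Without the 23 cells highest in macrophage genes, RMP gave −0.21 for HCN2 and −0.028 for HCN4. DESeq2 gave 0.25 for HCN4 on Input_res_new, 0.018 for HCN3 on Delta.Rmem and −0.15 for HCN2 at day 2. Limma gave −0.0061 for HCN2 in active neurons, 0.022 for HCN2 and 0.0021 for HCN4 on Input_res_new, and 0.063 for HCN3 on Delta.Rmem. Without the 3 cells of most counts, chosen after seeing the data, HCN4 was 1.00 on Input_res_new and HCN2 −0.17 at day 2. Without the animal as a block (no pairing), HCN2 was −0.018 on RMP, 0.044 on Delta.Rmem and 0.41 on X100Hz, and HCN4 −1.03 at day 2, and the block changed no call of an HCN gene.

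Leaving out 1 animal at a time turned the sign in 19 fits. The ranges were −0.17 to 0.90 for HCN2 in active neurons, −0.076 to 0.93 for HCN2 and −0.21 to 1.00 for HCN4 on RMP, −0.067 to 1.12 for HCN3 and −1.07 to 0.75 for HCN4 on Input_res_new, −0.61 to 0.52 for HCN3 on Delta.Rmem, −0.78 to 0.39 for HCN2 on X100Hz, −0.59 to 0.67 for HCN2 at day 2, and −0.013 to 0.36 for HCN2 and −1.004 to 0.43 for HCN4 per week of age. For HCN4 on X100Hz it was 1.96 to 4.55. Of the mean rho values, HCN4 with RMP was 0.17 in ADCYAP1-high cells, and HCN4 with X100Hz 0.447 as Pearson's r with a pseudocount of 1 or 10 and 0.19 in ADCYAP1-high cells. The share of cells with at least 5 counts was 5.31% for HCN2, 4.42% for HCN3 and 0.885% for HCN4.

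Over all genes, the number called ran over the alternatives from 637 to 2663 between the gates (1572 in the report's fit), at most 0.992% of genes for activity (0.0133%), 0 to 4 for RMP (0), 0 to 520 for Input_res_new (68), 0 to 58 for Delta.Rmem (0), 0 to 655 for X100Hz (0.812% of genes), 0 to 42 for day 2 (0) and 0 to 53 for age (0), and every highest number came from DESeq2. DESeq2 size factors in edgeR's fit moved no median over genes by more than 0.1. The day 3 alternatives were not run because 3 animals allowed no test. At the median depth a single count equals 1.35 CPM, which limits what a cell at 0 can show.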
